A study of Mus musculus with 29 samples.

Results

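The granulocyte and monocyte priming genes described here are 10 genes selected by symbol from the 30025 genes of an RNA-Seq table of mouse hematopoietic stem cells and multipotent progenitors. They are 4 genes for enzymes of the primary granules (Mpo, Elane, Ctsg and Prtn3), 3 genes for transcription factors (Cebpa, Cebpe and Irf8) and 3 genes for surface receptors (Csf3r, Csf1r and Fcgr3). Each symbol was found in the table, and each gene was followed through all 29 libraries.

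Lineage priming is the low expression, in cells that can still form several lineages, of genes that become abundant only after commitment. In the granulocyte and monocyte branch, C/EBPα, the protein encoded by Cebpa, is required for the step from common myeloid to granulocyte-monocyte progenitors, where the primary granule enzymes are strongly induced. C/EBPε acts later in granulocytes, IRF8 directs progenitors toward monocytes and dendritic cells, and the receptors for G-CSF and M-CSF carry the growth signals of the granulocyte and monocyte lineages.

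Bone marrow cells with a c-kit+, lineage-, Sca-1+, CD41- and CD48- surface phenotype were sorted by CD150 into CD150hi HSC, CD150lo HSC and CD150neg MPP. The mice were C57BL/6J animals between 12.42 and 13.85 weeks of age, either wild type (WT) or heterozygous for a germ line deletion of a segment of chromosome band 5A3 that is syntenic to part of human 7q22 (5A3+/del). The deletion was made with Cre recombinase in embryonic stem cells and is therefore carried by every cell, so the genotype of the sorted cells and of their marrow environment cannot be told apart. There were 5 libraries for each genotype and population except 5A3+/del CD150neg MPP, with 4, from 10 mice in all. A code in the labels shows that each mouse gave 1 library per population, apart from 5A3+/del mouse 5, which has no CD150neg MPP library.

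Library depth ranged from 21229490 to 38797569 fragments, and 17346 to 23588 genes had a value above 0. Slamf1, which encodes CD150, had a median of 14.9 FPKM (fragments normalized to exon length and library depth) in CD150hi HSC, 1.12 FPKM in CD150lo HSC and 0.0222 FPKM in CD150neg MPP, with no overlap between the CD150hi libraries and the others. Cd48, whose protein was excluded in the sort, had medians of 0.354, 2.68 and 7.34 FPKM in the same order. The summed FPKM of the 10 tested genes inside the 5A3 interval was 194 to 266 in WT and 137 to 182 in 5A3+/del libraries, with no overlap between genotypes. Mature neutrophil transcripts were present in all libraries, with a sum over 9 markers between 3.05 and 1370 FPKM. The CD150hi and CD150lo libraries of WT mouse 1 had the highest sums. The main comparisons of Mpo, Elane and Ctsg are therefore given below with all mice and without some mice. Population differences are given without mouse 1 of both genotypes, and genotype differences in CD150hi HSC without WT mouse 1.

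The genes lie on 8 chromosomes (mm9, GENCODE positions). Among the granule enzymes, Prtn3 (ENSMUSG00000057729) spans chr10:79337221-79345919 and Elane (ENSMUSG00000020125) spans chr10:79349057-79350961, both on the plus strand and 3137 bases apart. Mpo (ENSMUSG00000009350) spans chr11:87607083-87617915 on the plus strand and Ctsg (ENSMUSG00000040314) spans chr14:56718718-56721411 on the minus strand. The first exon of a Prtn3 transcript annotated as processed, without a coding sequence, overlaps the antisense gene BC005764 over 159 bases, and BC005764 had a median of 14.7 FPKM. Strand was not marked by the library kit, so reads from this stretch cannot be assigned to either gene. Mpo also overlaps an antisense gene, Gm11505, which was not analysed here.

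Among the other members, Cebpa (ENSMUSG00000034957) spans chr7:35904312-35906945 on the plus strand as a single exon, and Cebpe (ENSMUSG00000052435) spans chr14:55329200-55331011 on the minus strand. Irf8 (ENSMUSG00000041515) spans chr8:123260258-123280594 on the plus strand inside the longer gene model Gm20388. Csf3r (ENSMUSG00000028859) spans chr4:125701794-125722219 on the plus strand, and Fcgr3 (ENSMUSG00000059498) spans chr1:172981300-172995066 on the minus strand. Csf1r (ENSMUSG00000024621) spans chr18:61265226-61291803 on the plus strand. Its last 871 bases overlap the antisense gene Hmgxb3, which had a median of 4.69 FPKM and a lowest value of 3.07 FPKM. The highest Csf1r value was 1.59 FPKM. In the CD150hi libraries of WT mouse 2 and 5A3+/del mouse 1, Csf1r had 0 fragments. The part of Hmgxb3 reads in the other Csf1r values was not tested.

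The 10 genes fell into 2 classes by level. Csf3r, the G-CSF receptor, ranged from 24.4 to 90.9 FPKM and Prtn3, proteinase 3, from 20.4 to 60.1 FPKM, and the highest member was one of these genes in each of the 29 libraries. None of the other 8 genes exceeded 27.7 FPKM, and their medians over the 29 libraries were 2.29 for Mpo, 1.36 for Cebpa, 1.11 for Elane, 0.541 for Csf1r, 0.467 for Irf8, 0.0365 for Fcgr3, 0.0307 for Cebpe and 0 FPKM for Ctsg. FPKM are values per exon length, which allows a rough comparison between genes. The part of RNA amplification and of reads shared with overlapping genes in these levels was not tested. Csf3r was above Prtn3 in 24 of 29 libraries, although their ranges overlapped in each population.

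**Figure D1:**
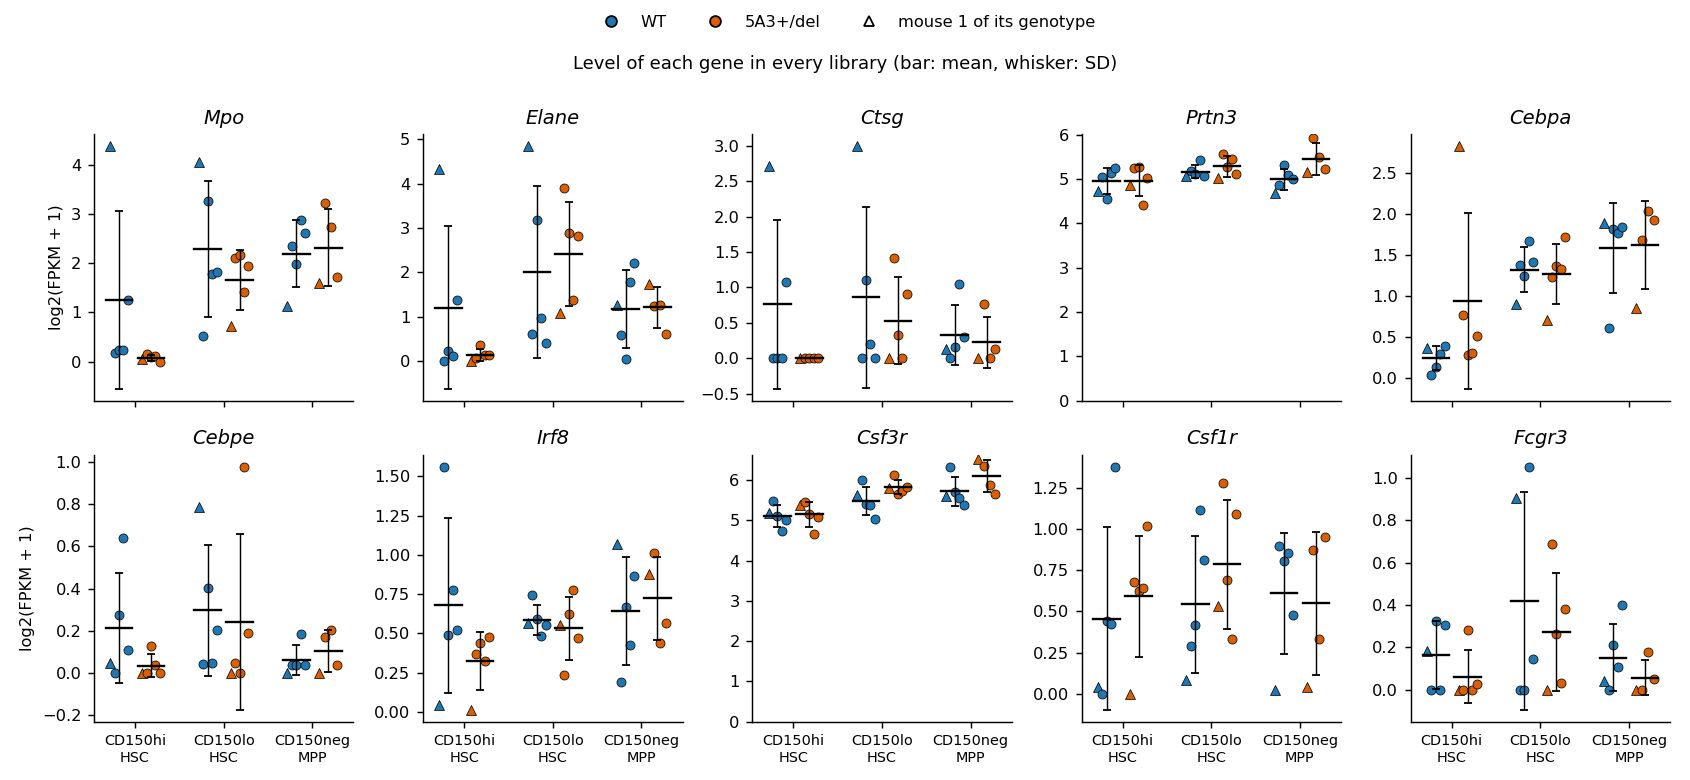
The level of each of the 10 genes, as log2(FPKM + 1) on the vertical axis (each panel has its own scale), is plotted for every library by population and genotype, with the mean (bar) and SD (whisker) of each group and mouse 1 of each genotype as a triangle. Prtn3 and Csf3r were high in all 29 libraries, and the highest points of Mpo, Elane and Ctsg belonged to WT mouse 1.

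In CD150hi HSC the order by median was Csf3r (34.1 FPKM), Prtn3 (31.9), Csf1r (0.450), Irf8 (0.374), Cebpa (0.260), Mpo (0.123), Elane (0.101), Cebpe (0.0291), Fcgr3 (0.00849) and Ctsg (0). In CD150lo HSC Elane (3.85), Mpo (2.69) and Cebpa (1.54) stood in positions 3 to 5, and in CD150neg MPP these were Mpo (4.11), Cebpa (2.52) and Elane (1.38). From the third position down, the ranges of neighbours in these orders overlapped in every population. Mpo, Elane and Cebpa were thus below Csf1r and Irf8 by median in CD150hi HSC and above them in the other populations.

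The granule enzyme genes split sharply. Prtn3 and Elane encode related serine proteases of the same granules and are neighbours on chromosome 10, yet Prtn3 was above Elane in all 29 libraries. In the 27 libraries in which Elane was above 0, the ratio of Prtn3 to Elane ranged from 1.17 to 1180, with a median of 31.5. The lowest ratio belonged to the CD150lo library of WT mouse 1, in which Elane was at 27.7 FPKM and Prtn3 at 32.4 FPKM.

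The start regions of the 4 granule enzyme genes are printed because these genes serve the same organelle but did not share 1 level. The windows are from RefSeq (build GRCm38.p6, not the mm9 build of the table), cover 250 bases before and 50 bases after the annotated start, and are written 5′ to 3′ along the gene; 8 of the 10 genes had a window there, and Cebpe and Csf1r did not. Capitals mark the letters AGGAAGT, the core of the sites bound by PU.1 and other ETS factors, searched on both strands. The windows are chr11:87793534-87793833 (+) for Mpo, chr10:79886062-79886361 (+) for Elane, chr14:56102525-56102824 (-) for Ctsg and chr10:79879417-79879716 (+) for Prtn3. The Prtn3 and Elane windows lie closer together than the first bases of the spans given above. The Prtn3 window thus sits inside its listed span, away from the stretch shared with BC005764.
Mpo: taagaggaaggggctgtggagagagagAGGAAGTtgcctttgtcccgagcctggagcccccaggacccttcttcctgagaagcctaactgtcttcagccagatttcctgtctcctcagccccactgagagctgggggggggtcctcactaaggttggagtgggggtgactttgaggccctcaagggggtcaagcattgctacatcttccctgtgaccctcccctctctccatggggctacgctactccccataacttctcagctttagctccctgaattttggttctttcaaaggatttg
Elane: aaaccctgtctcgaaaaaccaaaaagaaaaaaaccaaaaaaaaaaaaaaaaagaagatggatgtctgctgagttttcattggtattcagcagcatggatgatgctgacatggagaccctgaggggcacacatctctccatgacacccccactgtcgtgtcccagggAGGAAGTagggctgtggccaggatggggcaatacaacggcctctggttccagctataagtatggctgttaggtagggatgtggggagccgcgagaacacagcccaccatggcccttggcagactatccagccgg
Ctsg: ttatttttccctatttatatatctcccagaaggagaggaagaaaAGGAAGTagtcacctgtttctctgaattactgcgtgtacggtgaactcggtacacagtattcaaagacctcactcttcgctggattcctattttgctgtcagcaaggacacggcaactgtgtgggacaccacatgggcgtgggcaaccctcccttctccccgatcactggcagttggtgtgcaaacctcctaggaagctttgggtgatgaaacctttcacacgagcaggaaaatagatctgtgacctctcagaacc
Prtn3: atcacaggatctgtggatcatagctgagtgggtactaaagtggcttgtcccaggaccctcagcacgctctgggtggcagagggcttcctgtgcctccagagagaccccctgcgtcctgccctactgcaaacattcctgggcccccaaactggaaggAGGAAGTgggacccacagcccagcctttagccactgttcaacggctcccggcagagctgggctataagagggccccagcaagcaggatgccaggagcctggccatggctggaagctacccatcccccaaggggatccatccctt
Each of the 4 windows holds 1 match, on the plus strand, which begins 223 bases before the start in Mpo, 84 in Elane, 206 in Ctsg and 94 in Prtn3. The same letters occur in 3072 of 32851 promoter windows of this length (9.35%), and in none of the windows of Cebpa, Irf8, Csf3r and Fcgr3. The letters TTNNGCAA, a C/EBP-type core searched on both strands, occur in 10.8% of all windows and in none of the 4 printed here, whereas both of the overlapping Fcgr3 windows hold 1 match. The letters searched were chosen after the sequences were seen. A match is a description of the sequence, and the high Prtn3 and the low Ctsg window do not differ in it.

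Mpo, myeloperoxidase, was the granule enzyme gene with the clearest difference between populations. In CD150hi HSC, in the order of mice 1 to 5, the WT libraries had 19.7, 0.133, 0.172, 0.170 and 1.38 FPKM and the 5A3+/del libraries had 0.0329, 0.114, 0.0661, 0.0850 and 0 FPKM. In CD150lo HSC the WT values were 15.7, 0.441, 8.63, 2.44 and 2.53 FPKM, and the 5A3+/del values were 0.642, 3.29, 3.48, 1.66 and 2.84 FPKM. In CD150neg MPP they were 1.20, 4.11, 2.95, 6.38 and 5.15 FPKM in WT and 2.02, 8.31, 5.66 and 2.29 FPKM in the 4 5A3+/del libraries. Apart from WT mouse 1, every mouse had its lowest Mpo value in CD150hi HSC.

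The population means were 2.19 ± 6.18 FPKM (SD, n = 10) in CD150hi HSC, 4.16 ± 4.63 (n = 10) in CD150lo HSC and 4.23 ± 2.34 (n = 9) in CD150neg MPP. Mpo was higher in CD150neg MPP than in CD150hi HSC by a log2 value of 1.50 ± 0.46 (SE; limma, adjusted p = 0.0298), a difference of mean log2(FPKM + 1) after quantile normalization that understates the change of a gene this low. It was higher in 8 of 9 mice, and the exact sign-flip permutation test gave an unadjusted p of 0.0547. The gap of 1.22 ± 0.45 between CD150hi and CD150lo HSC did not pass the threshold (adjusted p = 0.103), although Mpo was higher in CD150lo HSC in 9 of 10 mice (exact sign-flip permutation test, two-sided, unadjusted p = 0.00391). An alternative without mouse 1 of both genotypes was added after seeing the data. Its limma gaps were 1.53 to CD150lo HSC (adjusted p = 0.00196) and 2.15 to CD150neg MPP (adjusted p = 4.11e-05). The call of Mpo between CD150hi HSC and CD150neg MPP passed in 11 of 22 alternatives, and leaving out any single mouse other than mouse 1 of either genotype ended it (adjusted p = 0.0513 to 0.109).

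Elane, neutrophil elastase, had its highest median in CD150lo HSC. In CD150hi HSC the WT values were 19.1, 0, 0.160, 0.0793 and 1.58 FPKM, and the 5A3+/del values were 0, 0.0424, 0.287, 0.106 and 0.0963 FPKM. In CD150lo HSC they were 27.7, 0.535, 8.14, 0.950 and 0.323 FPKM in WT and 1.11, 13.9, 6.38, 1.61 and 6.09 FPKM in 5A3+/del. In CD150neg MPP they were 1.38, 0.492, 0.0328, 2.45 and 3.60 FPKM in WT and 2.34, 1.35, 1.40 and 0.519 FPKM in 5A3+/del. Within each genotype the CD150lo and CD150neg ranges overlapped.

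Elane was higher in CD150lo than in CD150hi HSC in 9 of 10 mice, the exception being WT mouse 5 (exact sign-flip permutation test, unadjusted p = 0.00977). The log2 difference of 1.49 ± 0.55 (SE) missed the threshold with all mice (limma, adjusted p = 0.103) and passed without mouse 1 of both genotypes, at 1.67 (adjusted p = 0.0149). From CD150lo HSC to CD150neg MPP the difference was -1.02 ± 0.57 (adjusted p = 0.700), with lower values in 6 of 9 mice, and -0.91 without mouse 1 of both genotypes (adjusted p = 0.716). Elane was above Mpo in 12 of 29 libraries.

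Ctsg, cathepsin G, was at 0 in 15 of 29 libraries, since 14 had a value above 0. All 5 5A3+/del CD150hi libraries had 0 fragments, where 3 fragments would have given 0.0885 to 0.117 FPKM, and 3 of the 5 WT CD150hi libraries had 0 as well. The other WT CD150hi libraries were those of mouse 1 (5.57 FPKM, 141 fragments) and mouse 5 (1.11 FPKM, 35 fragments). In CD150lo HSC, WT mouse 1 had 6.95 FPKM, and the other 9 libraries lay between 0 and 1.67 FPKM. In CD150neg MPP the range was 0 to 1.07 FPKM. No Ctsg difference between populations passed (limma, lowest adjusted p = 0.757, and 0.528 without mouse 1 of both genotypes).

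Prtn3 was nearly level across the populations. The WT values in CD150hi HSC were 25.8, 32.2, 22.4, 34.2 and 37.3 FPKM, and the 5A3+/del values were 28.1, 36.8, 37.6, 20.4 and 31.5 FPKM. In CD150lo HSC they were 32.4, 35.1, 33.4, 42.1 and 32.5 FPKM in WT and 31.3, 46.7, 37.8, 42.6 and 33.5 FPKM in 5A3+/del. In CD150neg MPP they were 24.6, 28.1, 38.7, 33.1 and 31.2 FPKM in WT and 34.5, 60.1, 44.0 and 36.6 FPKM in 5A3+/del. The ranges of the 3 populations overlapped, with log2 differences from CD150hi HSC of 0.26 ± 0.13 (SE) to CD150lo HSC (adjusted p = 0.246) and 0.20 ± 0.13 to CD150neg MPP (adjusted p = 0.366). The value was higher in CD150lo than in CD150hi HSC in 9 of 10 mice (exact sign-flip permutation test, unadjusted p = 0.0176).

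WT mouse 1 set apart 3 of the 4 granule enzyme genes, and its CD150hi and CD150lo libraries were high in genes of mature neutrophils. S100a8, a cytosolic protein of mature neutrophils, was at 478 FPKM in its CD150hi library, where the other WT CD150hi libraries had 16.8 to 152 FPKM. In its CD150lo library S100a8 was at 738 FPKM, against 6.30 to 111 FPKM in the other WT mice. Its CD150neg library was mixed. S100a8 (76.5 FPKM), Ngp (30.9) and Camp (9.88) were above the other WT CD150neg libraries. S100a9 (7.85 FPKM) and Ltf (0.481) lay within the range of the others, and Lcn2 (0.123) lay below it. Mpo was at 1.20 FPKM there, the lowest Mpo value of the WT CD150neg libraries. The secondary granule genes Ngp and Camp were at 110 and 64.0 FPKM in its CD150hi library, above the 20.9 and 13.4 FPKM of the highest other WT CD150hi library.

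**Figure D2:**
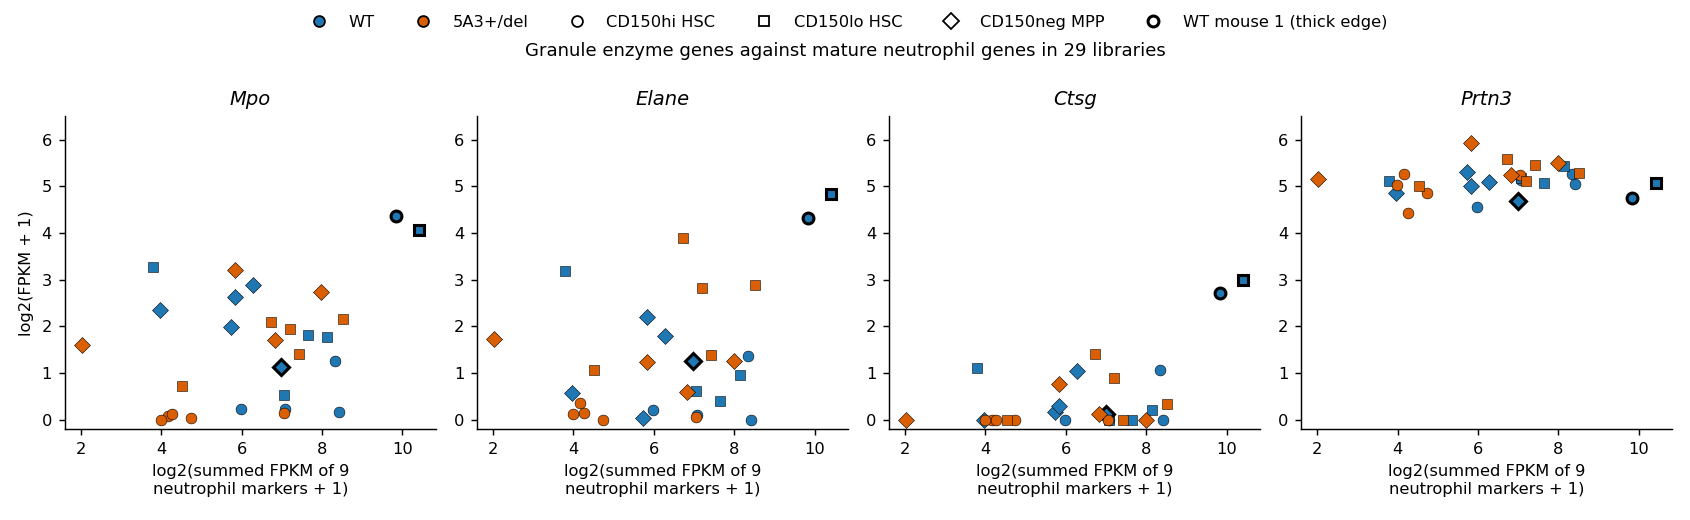
For each of the 29 libraries, the level of a granule enzyme gene, as log2(FPKM + 1), is plotted against the summed FPKM of 9 mature neutrophil markers, as log2(sum + 1), with colors for genotype, shapes for population and thick edges for WT mouse 1. The CD150hi and CD150lo libraries of WT mouse 1 lie apart at the upper right for Mpo, Elane and Ctsg, with sums of 915 and 1370 FPKM, whereas Prtn3 stays between 20.4 and 60.1 FPKM at every sum.

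Across the 29 libraries, Pearson's r between the log2 neutrophil sum and the log2 level was 0.35 for Mpo, 0.39 for Elane, 0.50 for Ctsg and 0.16 for Prtn3. In the 23 libraries that remain without mouse 1 of both genotypes these were 0.02, 0.10, 0.02 and 0.37. Libraries of 1 mouse share their animal, all values share their library's depth and the populations are pooled, so these are descriptions. Of the 9 markers, Mmp8 and Retnlg had a median of 0, and Mmp8 was at 0 in 22 of 29 libraries. The lineage antibodies of the sort included Gr-1, a surface marker of granulocytes. The part of mature neutrophil RNA in the granule enzyme values was not tested. In bulk samples, fewer cells of a type and less RNA per cell cannot be told apart.

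The transcription factor genes were low, and Cebpa was the member of this class that differed between populations. In CD150hi HSC the WT libraries had 0.286, 0.0246, 0.0976, 0.222 and 0.301 FPKM of Cebpa, and the 5A3+/del libraries had 6.09, 0.697, 0.215, 0.233 and 0.426 FPKM. In CD150lo HSC the values were 0.871, 1.60, 1.36, 2.18 and 1.66 FPKM in WT and 0.634, 1.34, 1.57, 1.52 and 2.29 FPKM in 5A3+/del. In CD150neg MPP they were 2.70, 0.528, 2.52, 2.42 and 2.58 FPKM in WT and 0.803, 2.20, 3.10 and 2.79 FPKM in 5A3+/del. In WT, every CD150lo and CD150neg value was above every CD150hi value, and how many of all genes separate in this way was not counted.

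The exception was the CD150hi library of 5A3+/del mouse 1, whose 6.09 FPKM (427 fragments) was the highest Cebpa value of all 29 libraries. That library also had the highest CD150hi value of Slamf1 (22.6 FPKM) and 22.4 FPKM of Zeb2, against 9.27 to 11.6 FPKM of Zeb2 in the other 5A3+/del CD150hi libraries, and it had the fewest genes above 0. Cebpa was higher in CD150neg MPP than in CD150hi HSC by a log2 value of 0.99 ± 0.25 (SE; limma, adjusted p = 0.00820), with higher values in 8 of 9 mice (exact sign-flip permutation test, unadjusted p = 0.0430, and 0.0547 on quantile normalized values). Between CD150hi and CD150lo HSC the difference was 0.67 ± 0.25 (adjusted p = 0.102), with higher values in 9 of 10 mice. Without mouse 1 of both genotypes these differences were 1.31 (adjusted p = 4.83e-06) and 1.03 (adjusted p = 0.000118). The call between CD150hi HSC and CD150neg MPP passed in 20 of 22 alternatives, and was lost in 5A3+/del libraries alone (0.74, adjusted p = 0.316) and without 5A3+/del mouse 3 (0.82, adjusted p = 0.0555).

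Irf8 was low in every population and did not reach the minimum of 1 FPKM in 4 libraries, so it did not enter the limma test with that filter. The values ranged from 0.0107 to 1.94 FPKM in CD150hi HSC, from 0.178 to 0.713 in CD150lo HSC and from 0.142 to 1.10 in CD150neg MPP, with medians of 0.374, 0.475 and 0.590 FPKM. The 1.94 FPKM of WT mouse 2 (423 fragments) was the highest, and the libraries of mouse 1 of both genotypes were the lowest in CD150hi HSC, at 0.0337 and 0.0107 FPKM. Irf8 was higher in CD150neg MPP than in CD150hi HSC in 6 of 9 mice (exact sign-flip permutation test, unadjusted p = 0.492).

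Cebpe, the later granulocyte factor, was close to the detection limit. It had 3 fragments or fewer in 8 of 10 CD150hi, 5 of 10 CD150lo and 6 of 9 CD150neg libraries. The highest values were 0.968 FPKM in the CD150lo library of 5A3+/del mouse 4 (30 fragments) and 0.729 FPKM in that of WT mouse 1 (35 fragments). Differences between populations were not detectable at this depth.

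Csf3r, the receptor through which G-CSF drives granulocyte production, increased from CD150hi HSC to CD150neg MPP. The WT values in CD150hi HSC were 35.5, 43.9, 33.7, 25.6 and 31.1 FPKM, and the 5A3+/del values were 40.9, 43.2, 34.5, 24.4 and 32.8 FPKM. In CD150lo HSC they were 48.2, 62.4, 41.0, 40.9 and 31.8 FPKM in WT and 54.7, 68.8, 49.6, 51.6 and 55.3 FPKM in 5A3+/del. In CD150neg MPP they were 47.8, 79.1, 51.2, 46.3 and 40.9 FPKM in WT and 90.9, 80.3, 57.3 and 49.5 FPKM in 5A3+/del. In 5A3+/del mice the CD150hi range lay below the CD150lo and CD150neg ranges, and in WT mice the ranges overlapped. The share of all genes that separate in this way was not counted.

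The population means were 34.6 ± 6.68 FPKM (SD, n = 10), 50.4 ± 10.9 (n = 10) and 60.4 ± 18.1 (n = 9). Csf3r was higher in CD150lo than in CD150hi HSC by a log2 value of 0.51 ± 0.13 (SE; limma, adjusted p = 0.0137) and in 10 of 10 mice (exact sign-flip permutation test, p = 0.00195, the smallest that 10 mice allow). It was higher in CD150neg MPP than in CD150hi HSC by 0.73 ± 0.14 (adjusted p = 0.000270) and in 9 of 9 mice (exact p = 0.00391, the smallest that 9 mice allow). From CD150lo HSC to CD150neg MPP the difference was 0.23 ± 0.14 (adjusted p = 0.722), with higher values in 7 of 9 mice (exact unadjusted p = 0.0156). The call between CD150hi HSC and CD150neg MPP passed in all 22 alternatives, and that between CD150hi and CD150lo HSC in 21, since it was lost in WT libraries alone (0.35, adjusted p = 0.406).

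Csf1r, the M-CSF receptor of monocytes and macrophages, reached at most 1.59 FPKM. Its medians were 0.450, 0.529 and 0.744 FPKM in CD150hi HSC, CD150lo HSC and CD150neg MPP. In all 3 populations of WT mouse 1 the values were near 0 (0.0303, 0.0592 and 0.0180 FPKM), as they were in 3 other libraries (0, 0 and 0.0311 FPKM). No difference between populations passed (limma, lowest adjusted p = 0.774). Fcgr3, which encodes an IgG receptor whose surface protein is among those used to separate granulocyte-monocyte from other progenitors, was at 0 in 11 of 29 libraries and reached 1.07 FPKM in WT CD150lo mouse 4. It had 3 fragments or fewer in 6 of 10 CD150hi, 4 of 10 CD150lo and 5 of 9 CD150neg libraries.

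**Figure D3:**
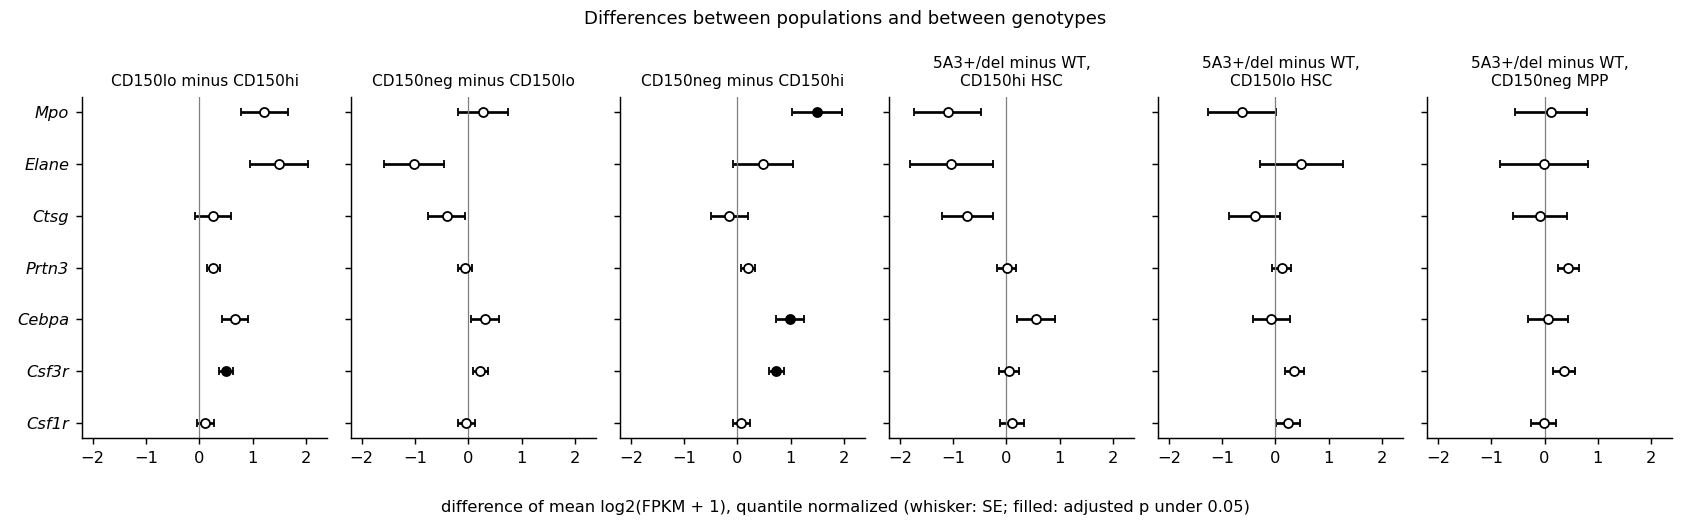
For the 7 genes that passed the expression filter, the log2 difference between populations (left, mean over genotypes) and between genotypes (right) is plotted with its SE, with filled points for an adjusted p under 0.05. Filled points are Csf3r between CD150hi and CD150lo HSC and Mpo, Cebpa and Csf3r between CD150hi HSC and CD150neg MPP, and no genotype difference is filled.

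Of the 10 genes, 7 passed the filter of at least 1 FPKM in at least 4 libraries and entered the test across 15409 genes. Between CD150hi and CD150lo HSC, 1 of the 7 was higher in CD150lo HSC and 0 were lower, where 3.41% of all genes were called higher and 4.23% lower. Between CD150hi HSC and CD150neg MPP, 3 of the 7 were higher in CD150neg MPP and 0 were lower, against 6.2% and 6.99% of all genes. Between CD150lo HSC and CD150neg MPP 0 were called in either direction, against 0.117% called higher and 0.175% called lower, and 0 of the 7 had an unadjusted p under 0.05. The median log2 difference of the 7 genes was 0.51 from CD150hi to CD150lo HSC and 0.47 from CD150hi HSC to CD150neg MPP, where the medians over all genes were 0.0052 and 0.0046. Mpo, Elane and Cebpa had CD150hi medians of 0.123, 0.101 and 0.260 FPKM, so they passed the filter mainly through the other populations. The members were also chosen with earlier results of these data known. These counts and medians are descriptions and do not test the set.

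The populations also differed in markers of other lineages. The summed FPKM of 5 early lymphoid genes was 1.66 to 5.35 in CD150hi, 27.1 to 46.4 in CD150lo and 50.4 to 71.8 in CD150neg libraries, led by Flt3, the receptor that marks multipotent progenitors leaving the stem cell state. The 9 monocyte and macrophage markers, led by Cd68, summed to 5.51 to 18.5 FPKM in CD150hi and 13.0 to 35.1 FPKM in the other libraries, and Cx3cr1 had a median of 0. Over the 29 libraries, the sums were 8.99 to 35.2 FPKM for 8 erythroid genes (led by Hbb-b1), 7.71 to 162 for 8 B and T lymphocyte genes (Ighm), 0.0223 to 11.5 for 6 mast cell, basophil and eosinophil genes (Cpa3), 496 to 783 for 7 stem cell genes (Hlf) and 43.1 to 91.0 for 3 sort and leukocyte surface genes (Ptprc). Cd3e, Cd8a, Mcpt8, Fcer1a, Gzmb, Epx and Prg2 had a median of 0. The part of these cell types in the results was not tested.

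The 5A3 deletion was compared with WT within each population. In CD150hi HSC 0 of the 7 tested genes were called, where 0.156% of all genes were called by limma, and 0 had an unadjusted p under 0.05. In CD150lo HSC 0 were called, against 0.0324% of all genes, with 0 at an unadjusted p under 0.05. In CD150neg MPP 0 were called, against 0.0454% of all genes, and 1, Prtn3, had an unadjusted p under 0.05.

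In CD150hi HSC, Mpo was at 0.133 to 19.7 FPKM (14 to 1706 fragments) in WT and 0 to 0.114 FPKM (0 to 10 fragments) in 5A3+/del libraries. After quantile normalization the log2 ranges overlapped, at 0.136 to 4.43 in WT and 0.013 to 0.540 in 5A3+/del libraries. How many of all genes lack overlap in deposited FPKM was not counted. Without WT mouse 1 the WT range was 0.133 to 1.38 FPKM. The exact permutation test of the deposited values gave p = 0.00794, the smallest that 5 against 5 mice allow, and p = 0.0635 on quantile normalized values (two-sided, unadjusted, 30 tests). In the limma test the log2 difference was -1.10 ± 0.63 (SE, adjusted p = 0.476), and it was -0.32 without WT mouse 1 (adjusted p = 0.807). For Elane the difference was -1.03 ± 0.78 (adjusted p = 0.610) and for Ctsg -0.74 ± 0.48 (adjusted p = 0.536), which became -0.23 and -0.24 without WT mouse 1. The sum of the neutrophil markers was 61.7 to 915 FPKM in WT and 14.9 to 132 FPKM in 5A3+/del CD150hi libraries. Over the 23 libraries of all populations without mouse 1 of both genotypes, its r was 0.02 with Mpo, 0.10 with Elane and 0.02 with Ctsg. These r values pool populations that differ in level, so they do not describe CD150hi HSC alone, where r was not computed. The part of mature neutrophil RNA in these genotype differences was not tested.

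In CD150lo HSC, WT mice had 5.94 ± 6.24 FPKM of Mpo and 7.53 ± 11.7 of Elane (SD, n = 5). For 5A3+/del mice these were 2.38 ± 1.20 and 5.82 ± 5.14 FPKM (n = 5). Without mouse 1 of each genotype the means were 3.51 and 2.82 FPKM for Mpo and 2.49 and 6.99 FPKM for Elane. The order of the Elane means thus depended on these mice. In CD150neg MPP, Mpo was at 3.96 ± 2.00 FPKM in WT mice (n = 5), and 5A3+/del mice had 4.57 ± 2.99 FPKM (n = 4). Each of these differences was smaller than the larger SD of its pair, but not always smaller than the other SD.

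For Prtn3 in CD150neg MPP WT mice had a mean of 31.1 ± 5.30 FPKM (SD, n = 5), and 5A3+/del mice one of 43.8 ± 11.6 FPKM (n = 4). The ranges overlapped, and the log2 difference was 0.45 ± 0.19 (SE; limma, unadjusted p = 0.0250, adjusted p = 1.00). The exact permutation test gave an unadjusted p of 0.0476, and 0.0794 on quantile normalized values. Csf3r in CD150lo HSC was at 44.9 ± 11.4 FPKM in WT mice (n = 5), and 5A3+/del mice had 56.0 ± 7.53 FPKM (n = 5), a log2 difference of 0.36 ± 0.19 (adjusted p = 0.780). In CD150neg MPP it was at 53.1 ± 15.0 (n = 5) and 69.5 ± 19.3 FPKM (n = 4), a log2 difference of 0.37 ± 0.20 (adjusted p = 1.00). In CD150hi HSC the Csf3r means were 33.9 ± 6.67 and 35.2 ± 7.41 FPKM.

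For Cebpa the genotype differences were 0.56 ± 0.35 (SE) in CD150hi HSC (adjusted p = 0.517), -0.08 ± 0.35 in CD150lo HSC (adjusted p = 0.994) and 0.06 ± 0.37 in CD150neg MPP (adjusted p = 1.00). The CD150hi difference was 0.07 without 5A3+/del mouse 1. For Irf8, Cebpe, Csf1r and Fcgr3, no exact permutation test of the deposited values gave an unadjusted p under 0.05, with a lowest p of 0.159 for Cebpe in CD150hi HSC. On quantile normalized values the exact p for this gene and population was 0.0476, with at most 3 fragments in each 5A3+/del library.

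The change of each population gap with genotype was tested as an interaction. For the gaps between CD150hi and CD150lo HSC, CD150lo HSC and CD150neg MPP, and CD150hi HSC and CD150neg MPP, 0 of the 7 genes were called and 0% of all 15409 genes, while 614, 771 and 1227 of all genes and 0 of the 7 had an unadjusted p under 0.05 (limma). The widest of these gaps was that of Elane from CD150hi to CD150lo HSC, at 1.52 ± 1.10 (SE) more in 5A3+/del mice (adjusted p = 0.999), and 1.74 without mouse 1 of both genotypes (adjusted p = 0.954). For Csf3r the change was 0.31 ± 0.26 (adjusted p = 0.999).

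A wider list of 53 other granulocyte and monocyte genes, 42 of which passed the filter, places the members among their pathways. Between CD150hi and CD150lo HSC, 11 of the 42 were higher in CD150lo HSC, 3 were lower and 28 did not pass, against 3.41% and 4.23% of all genes. Between CD150hi HSC and CD150neg MPP, 12 were higher in CD150neg MPP, 4 were lower and 26 did not pass, against 6.2% and 6.99% of all genes. The median log2 difference of the 42 genes in this comparison was 0.03. The 7 markers S100a8, S100a9, Ngp, Camp, Ltf, Lcn2 and Chi3l3 of mature granulocytes in this list were not called. The list was also chosen with earlier results of these data known. Cd33, with a CD150hi median of 0.391 FPKM, passed the filter mainly through the other populations. The counts and the median are descriptions and do not test the list.

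**Figure D4:**
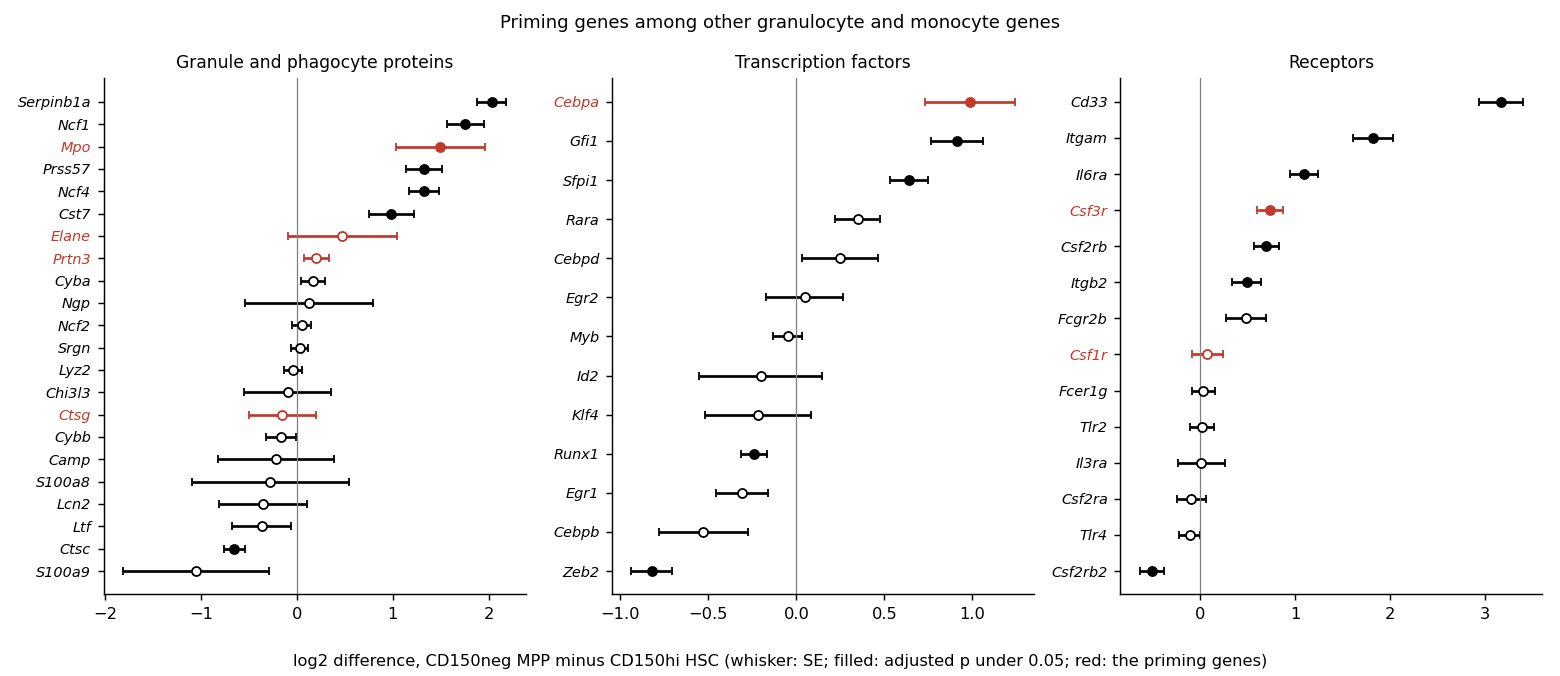
The log2 difference between CD150neg MPP and CD150hi HSC, with its SE, is plotted for the 7 tested priming genes (red) and 42 other granulocyte and monocyte genes, by class, with filled points for an adjusted p under 0.05. Cd33 had the largest difference (3.17), and Mpo (1.50), Cebpa (0.99) and Csf3r (0.73) lay among the genes with higher levels in CD150neg MPP.

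The genes with the smallest p-values were the same in both comparisons. Cd33, a sialic acid-binding receptor of myeloid cells, had medians of 0.391, 8.76 and 14.3 FPKM in CD150hi HSC, CD150lo HSC and CD150neg MPP, with log2 differences from CD150hi HSC of 2.62 ± 0.22 (SE, adjusted p = 3.15e-09) and 3.17 ± 0.23 (adjusted p = 6.47e-11). Serpinb1a, an inhibitor of the granule proteases elastase, cathepsin G and proteinase 3, had medians of 7.31, 26.1 and 39.4 FPKM, with differences of 1.67 ± 0.15 (adjusted p = 4.89e-09) and 2.03 ± 0.15 (adjusted p = 9.77e-11). Ncf1, a subunit of the phagocyte NADPH oxidase, differed by 1.41 ± 0.19 and 1.76 ± 0.19, and Itgam, the integrin chain CD11b, by 1.37 ± 0.20 and 1.82 ± 0.21. By median, Serpinb1a was above Elane and Ctsg in each population, below Prtn3 in CD150hi and CD150lo HSC (31.9 and 34.3 FPKM) and above it in CD150neg MPP (34.5 FPKM).

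By genotype and between CD150lo HSC and CD150neg MPP, 0 of the 42 genes were called (limma), and 16 in CD150hi HSC, 4 in CD150lo HSC, 4 in CD150neg MPP and 13 between CD150lo HSC and CD150neg MPP had an unadjusted p under 0.05. Of all 15409 genes, 2018, 1059 and 658 had one by genotype in the same order, and 580 higher and 642 lower genes had one between CD150lo HSC and CD150neg MPP. The median genotype difference in CD150hi HSC was -0.44 on the log2 scale for 18 tested genes of granule and phagocyte proteins, several of which are also neutrophil markers, -0.20 for 12 transcription factor genes, 0.26 for 12 receptor genes and -0.13 for all 42, beside the neutrophil sums given above. The 3 genes of the whole list with the highest means were Egr1, an immediate early transcription factor, Lyz2, lysozyme, and Srgn, the proteoglycan serglycin of granules. Lyz2 ranged from 149 to 254 FPKM and Srgn from 121 to 203 FPKM over the 29 libraries. Their genotype differences in CD150hi HSC were 0.25 ± 0.13 (SE) for Lyz2 (adjusted p = 0.411), 0.24 ± 0.12 for Srgn (adjusted p = 0.406) and -0.19 ± 0.20 for Egr1 (adjusted p = 0.740).

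The members varied together to different degrees. Over the 29 libraries, Pearson's r of the normalized log2 values was 0.84 between Elane and Ctsg, 0.77 between Mpo and Elane and 0.72 between Mpo and Ctsg, whereas Prtn3 had an r of 0.25 with Mpo, 0.12 with Elane and 0.02 with Ctsg. Among 15408 other genes, Elane was the closest to Ctsg and Ctsg the closest to Elane. In the 23 libraries without mouse 1 of both genotypes the r values were 0.75 for Elane with Ctsg, 0.64 for Mpo with Elane and 0.52 for Mpo with Ctsg. For Mpo with Cebpa r was 0.35 over all libraries and 0.77 without mouse 1. The points share mice, populations and library depth, and these values are descriptions.

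Outside the 10 genes, the closest gene by r over the 29 libraries was Cst7, which encodes cystatin F, for Mpo (0.72), Fcnb, the gene of ficolin B, for both Elane (0.81) and Ctsg (0.78), and Cd163, a scavenger receptor gene, for Prtn3 (0.70). It was Jakmip1 for Cebpa (0.82), Chd3 for Csf3r (0.84) and 5930434B04Rik for Csf1r (0.76). Without mouse 1 of both genotypes (23 libraries), r was 0.71 for Mpo with Cst7 and 0.82 with Mn1. It was 0.71 for Elane with Fcnb and 0.81 with Gm13401, and 0.55 for Ctsg with Fcnb. The order for Mpo and Elane thus depended on these mice. Fcnb, like Elane, had its highest median in CD150lo HSC, at 0, 0.654 and 0.113 FPKM in CD150hi HSC, CD150lo HSC and CD150neg MPP. The medians of Cst7 followed the order of those of Mpo, at 0.0352, 1.01 and 2.27 FPKM. Within groups, after removing each group mean and with mouse 1 kept, r was 0.57 for Mpo with Cst7, 0.76 for Elane with Fcnb and 0.83 for Ctsg with Fcnb. The within-group r was not computed without mouse 1.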

How the data were processed

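RNA from sorted cells was amplified (Ovation V2), made into TruSeq v2 libraries without strand marking and sequenced as read pairs by the authors. Reads were mapped to mm9, with Bowtie 0.12.2 and HTSeq named in the submitters' processing notes. The authors deposited 1 table of FPKM for 30025 genes in 29 libraries, not quantile normalized. Their own tests used the coverage of the highest covered coding exon, which is another quantity. Whether counting used strand, and how reads shared by genes were treated, is not given in the sources used here.

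From the FPKM, log2(FPKM + 1) was computed for the 15409 genes with at least 1 FPKM in at least 4 libraries and quantile normalized. limma 3.58.1 (R 4.3.3) was fitted to 6 group means, two-sided, with Benjamini-Hochberg adjustment over all tested genes and a threshold of 0.05. Population contrasts are means over the genotypes. Levels in the text are deposited FPKM. Single genes were also tested by exact two-sided permutation over mice (genotype) or exact sign flips within mice (population), on log2(FPKM + 1), unadjusted, with 30 tests in each family.

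Fragments were recovered from the steps of low FPKM values times exon length (GENCODE, mm9; 29279 genes), and 98.4% to 98.9% of low values per library were whole within 0.05. A floor of 3 fragments covers counting error only. Among 56 replicate pairs the correlation was 0.868 to 0.964, and no columns were identical. Libraries of different populations come from the same mice by a code in the labels, and their deviations from the group means correlated at -0.042 to 0.235. In simulated data for 15409 genes, 200 of them changed by a log2 value of 1, the test called 139 of them and 7 unchanged genes for genotype in CD150hi HSC, and 174 and 14 between CD150hi HSC and CD150neg MPP. The simulated noise was normal, independent between libraries and of the same spread in every group, and the changed genes were drawn from those above a minimum level. Outlying mice were not simulated, so these counts do not give the power for genes such as Mpo, Elane and Ctsg. RefSeq promoter windows were searched for 2 sets of letters.

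The members and gene lists were chosen with earlier results of these data known. Named genes are the 10 members, the closest other gene of each tested member, of the related genes those called (at most 4 per comparison) or the 3 with the highest mean, the leading gene of each marker list printed (1 list and single markers are not reported here), Slamf1 and Cd48. Ngp, Camp and the other granulocyte markers named beside them, Zeb2, Mn1 and Gm13401 were chosen after their values were seen. Alternatives covered the pseudocount (0.1), filter, normalization, design, age, the replicate block and each mouse left out. Python 3.11.15, pandas 2.3.3 and numpy 2.4.6 were used.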

Additional observations from a re-analysis of the deposited data

Results flagged for a closer look

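The check covered 58 combinations of gene and group (4 or 5 libraries) in which at least 1 library had more than 3 fragments. By Dixon's criterion on deposited FPKM, 15 held a library far from the rest of the group. For independent, normally distributed values chance would give about 2.9. Many of these values are skewed and near the floor, so the size of any excess over chance cannot be read from this. WT mouse 1 accounts for 5 of the 15. In its CD150hi library Mpo was at 19.7 FPKM (the others 0.133 to 1.38), Elane at 19.1 (0 to 1.58) and Ctsg at 5.57 (0 to 1.11), and in its CD150lo library Elane was at 27.7 (0.323 to 8.14) and Ctsg at 6.95 (0 to 1.15). The CD150hi library of 5A3+/del mouse 1 had 6.09 FPKM of Cebpa (0.215 to 0.697 in the others), and the CD150neg library of WT mouse 2 had 0.528 FPKM of Cebpa (2.42 to 2.70 in the others) and 79.1 FPKM of Csf3r (40.9 to 51.2).

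The CD150lo library of WT mouse 4 had 42.1 FPKM of Prtn3 (32.4 to 35.1 in the others), and its CD150neg library had 1.07 FPKM of Ctsg (0 to 0.227) and 0.136 FPKM of Cebpe (5 fragments). The CD150neg library of 5A3+/del mouse 2 had 0.695 FPKM of Ctsg (18 fragments), and the CD150lo library of 5A3+/del mouse 4 had 0.968 FPKM of Cebpe (30 fragments). The CD150hi library of WT mouse 5 had 1.59 FPKM of Csf1r (0 to 0.358 in the others), and that of 5A3+/del mouse 3 had 0.217 FPKM of Fcgr3 (10 fragments). The causes were not tested.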

How the results depend on the processing

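The counts of members called by genotype, between CD150lo HSC and CD150neg MPP and for each interaction were 0 under every alternative run. Between CD150hi and CD150lo HSC the count of 1 became 4 with a pseudocount of 0.1, 0 in WT libraries alone, 1 to 3 when each mouse was left out in turn, and 4 without mouse 1 of both genotypes, an alternative added after seeing the data. Between CD150hi HSC and CD150neg MPP the count of 3 became 1 in 5A3+/del libraries alone, 2 with no filter on low values and in WT libraries alone, and 1 to 3 when each mouse was left out (1 without 5A3+/del mouse 3). Of the exact tests by genotype, 2 gave an unadjusted p under 0.05 on deposited values (Mpo in CD150hi HSC and Prtn3 in CD150neg MPP). Neither did on quantile normalized values, where 1 other, Cebpe in CD150hi HSC, did (exact permutation p = 0.0476). For Prtn3 between CD150hi HSC and CD150neg MPP the log2 difference was -0.02 in WT libraries alone, against 0.20. The causes were not tested. Same-numbered WT and 5A3+/del libraries come from different mice and their deviations did not correlate (-0.034 to 0.081). With the replicate block, 1 member was called between CD150hi and CD150lo HSC and 3 between CD150hi HSC and CD150neg MPP, and no other call changed. For Ctsg, Cebpe and Fcgr3, depth limits what can be seen, since many libraries held 3 fragments or fewer.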
